A study of Saccharomyces cerevisiae with 32 samples.

Results

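Residues 51 to 55 of PDZ3, a domain of PSD95, a scaffold protein of synapses, were examined by deep mutational scanning. They are leucine 51, arginine 52, lysine 53, glycine 54 and aspartate 55, which are residues 353 to 357 of PSD95. Every variant without a stop codon that changed exactly 1 of these residues was taken, with either the wild-type ligand or a ligand carrying 1 substitution. This gave 13827 variants of 242230 in the PDZ3-CRIPT table, made up of all 95 possible single substitutions and 13732 of 14440 possible pairs. CRIPT contributed the last 8 residues of each sequence as the ligand: K1, N2, Y3, K4, Q5, T6, S7 and V8, where V8 is ligand position 0 and T6 is position -2.

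Yeast of laboratory strain BY4741 carried the library in 2 blocks, each with 3 biological replicates. Input cultures grew for 5 generations under plasmid selection without drug, and output cultures then grew in competition medium with 200 µg/mL methotrexate. Each block had 3 input samples, 3 output samples and 1 wild-type control sample. The library was carried on plasmids, so the readout is growth of yeast and not signalling at a synapse. The authors deposited 1 fitness score and 1 error per amino acid sequence, merged over replicates. Each value below carries that error (±). The spread between replicates and the sequencing depth behind a value are unknown. The log base of the score was not given in the sources used here. On this scale wild type scored -0.000512 ± 0.00383 and the median of 5301 stop variants was -0.799, so a lower score means slower growth in the drug.

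PDZ domains bind the free carboxyl terminus of partner proteins in a groove between the second strand and the second helix. In this family a turn with a conserved glycine and aspartate leads into the fourth strand, on the far side of the domain from the groove. In a complementation assay of this kind, fragments of a drug-resistant enzyme are brought together by the binding partners, so that growth follows the amount of complex, which depends on how much folded protein is present and on how tightly it binds. These 2 contributions cannot be told apart in the scores used here. The position of the turn comes from knowledge of the family, since the table holds no structure.

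Substitutions at the 5 residues went in both directions. Of the 95 single substitutions, 46 scored lower than wild type (48.4%), 34 scored higher (35.8%) and 15 passed the test in neither direction. The test was a two-sided normal test of the score difference over the combined error, with Benjamini-Hochberg adjustment over 142250 variants of residues 51 to 100 and a threshold of 0.05. Over all 947 single substitutions of residues 51 to 100 the shares were 37.6% lower and 21.8% higher. Over every variant of that listing, pairs and stops included, they were 74.9% lower and 1.99% higher. At the next 5 residues, 56 to 60, 38 single substitutions scored lower and 9 higher of 95. All comparisons share the error of the single wild-type value. With an added error of 0.0118, 35 of the 95 scored lower and 22 higher. That error was estimated from CRIPT substitutions measured in both listings of the table. The shares over the 947 single substitutions were not computed with the added error.

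The 5 residues differed from each other more than the errors of their means. Those errors are propagated from the deposited errors only. They leave out the spread between the substitutions of a residue, whose standard deviation was 0.0428 to 0.321. The mean score was -0.157 ± 0.0042 at leucine 51, 0.0151 ± 0.0034 at arginine 52, -0.0310 ± 0.0031 at lysine 53, -0.0876 ± 0.0029 at glycine 54 and -0.188 ± 0.0032 at aspartate 55. From the lowest of the 50 positions in the listing, these means ranked 9th for aspartate 55, 10th for leucine 51, 16th for glycine 54, 24th for lysine 53 and 41st for arginine 52. Scores under -0.5 were reached by a minority of substitutions: 4 at leucine 51, 1 at arginine 52, 0 at lysine 53, 2 at glycine 54 and 3 at aspartate 55. At aspartate 55, however, 16 of 19 substitutions scored lower than wild type. The medians were -0.0188, 0.0501, -0.0333, 0.0061 and -0.0906 in residue order. They were closer to wild type than the means at leucine 51, glycine 54 and aspartate 55. At glycine 54 the mean and the median differed in sign.

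Leucine 51 separated its replacements by charge. Leucine is a large nonpolar residue of the kind found in protein interiors. L51D scored -0.861 ± 0.0370, L51R -0.744 ± 0.0299, L51E -0.700 ± 0.0277 and L51K -0.575 ± 0.0231. These 4 are the charged residues, and L51D lay near the median of the stop variants. Uncharged polar replacements of the same shape scored far higher: L51N, the amide counterpart of aspartate, scored -0.0855 ± 0.0151 and L51Q, that of glutamate, -0.278 ± 0.0122. The difference between L51D and L51N was -0.775 ± 0.0400 and that between L51E and L51Q was -0.422 ± 0.0302. L51H, at -0.191 ± 0.0115, and L51W, at -0.113 ± 0.0101, were also lower than wild type.

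Smaller residues and the other aliphatic residues in place of leucine 51 gave most of the scores above wild type. L51A scored 0.0351 ± 0.0113, L51S 0.0509 ± 0.0130, L51T 0.0533 ± 0.0125 and L51C 0.0599 ± 0.0125. Among the conservative exchanges L51M scored 0.0352 ± 0.0163, L51V 0.102 ± 0.0149 and L51I 0.105 ± 0.0202. All 7 passed the test above wild type, although L51M and L51A did not when the added error was used. L51G at -0.0188 ± 0.0109 and L51P at 0.0073 ± 0.0091 did not pass. L51F scored 0.184 ± 0.0187, the 3rd highest of the 947 single substitutions. Tyrosine, which differs from phenylalanine by a hydroxyl group, scored lower than wild type at -0.0411 ± 0.0131, and the difference between L51F and L51Y was 0.225 ± 0.0228.

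Arginine 52 accepted every residue tested except proline. R52P scored -0.816 ± 0.0253 and was the only substitution there below wild type. The other 18 lay between 0.0063 ± 0.0130 (R52H) and 0.115 ± 0.0191 (R52F), and 17 of them passed the test above wild type. The charge-conserving exchange R52K, at 0.110 ± 0.0154, was among the highest. Charge-reversing residues also scored above wild type, with R52D at 0.0334 ± 0.0112 and R52E at 0.0373 ± 0.0125. R52A scored 0.0437 ± 0.0110 and R52G 0.0921 ± 0.0142. Of the other arginines in the listing, R66 had 19 of 19 substitutions above wild type with a mean of 0.0542 ± 0.0025, and R97 had 7 of 19 with a mean of 0.0256 ± 0.0045.

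Above wild type at arginine 52 were also, in rising order, R52Q at 0.0260, R52C at 0.0300, R52S at 0.0403, R52V at 0.0437, R52N at 0.0501, R52L at 0.0632, R52W at 0.0739, R52I at 0.0771, R52M at 0.0776, R52T at 0.0895 and R52Y at 0.0939, with errors between 0.0112 and 0.0209. These 11 hold aliphatic, aromatic and polar residues alike. With the added error 6 of the 17 higher calls (R52Q, R52C, R52D, R52E, R52S and R52V) did not pass.

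Lysine 53 had the smallest standard deviation, 0.0428, against 0.203 to 0.321 at the other 4 residues. Its 19 scores ran from K53H at -0.134 ± 0.0110 to K53I at 0.0434 ± 0.0144. At arginine 52 R52P scored -0.816, and the other scores there ran only from 0.0063 to 0.115, a narrower span than at lysine 53. Of the 19 at lysine 53, 12 passed below wild type. K53I alone passed above it, a call that was lost with the added error. K53R, which keeps the charge, scored 0.0048 ± 0.0117 and did not pass. K53A scored -0.0239 ± 0.0113 and did not pass, while K53G scored -0.0505 ± 0.01004 and was lower. Proline at this residue, K53P, scored -0.0485 ± 0.0120, far from the level of R52P next to it. K53Q at -0.102 ± 0.0113 was the second lowest, and glutamate scored higher than glutamine there: K53E was -0.0347 ± 0.0125, and the difference between K53E and K53Q passed the test.

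Glycine 54 gave scores from -0.695 to 0.146. Glycine has no side chain and can take backbone angles that other residues avoid. G54P scored -0.695 ± 0.0209, G54I -0.563 ± 0.0188 and G54V -0.306 ± 0.0113. Isoleucine and valine branch at the beta carbon. G54T, which also branches there, scored 0.0214 ± 0.0092, so valine lay below threonine by a difference of -0.328 ± 0.0146. G54L, which branches 1 carbon further out, scored -0.179 ± 0.0125. G54M, with an unbranched chain, scored 0.0678 ± 0.0106 and was above wild type.

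Acidic and amide residues at glycine 54 depended on their length. G54D scored -0.298 ± 0.0105 and G54E -0.0228 ± 0.0092, a difference of -0.275 ± 0.0140. G54N at -0.0699 ± 0.0098 likewise lay below G54Q at 0.0061 ± 0.0093. Lysine and arginine were above wild type, with G54K at 0.0437 ± 0.0099 and G54R at 0.0677 ± 0.0107. Among small residues G54S scored 0.0247 ± 0.0093, G54A 0.104 ± 0.0131 and G54C 0.146 ± 0.0120. The other 2 glycines of the listing had means nearer wild type, -0.0085 ± 0.0030 at G62 and 0.0027 ± 0.0024 at G81, with lowest scores of -0.117 and -0.0352.

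Aspartate 55 was lowered by 16 of 19 substitutions. The lowest were D55P at -0.888 ± 0.0320, D55R at -0.817 ± 0.0272, D55K at -0.514 ± 0.0155 and D55G at -0.347 ± 0.0122. Both positively charged side chains are in this group, and arginine lay below lysine by 0.303 ± 0.0313. Glycine lay below alanine: D55A scored -0.0780 ± 0.0101, and the difference between D55G and D55A was -0.269 ± 0.0158. The remaining 12 lower calls lay between D55W at -0.148 ± 0.0094 and D55M at -0.0309 ± 0.0101.

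The residues closest to aspartate did not score closest to wild type. D55N, the same shape without the charge, scored -0.0906 ± 0.0092 and D55E, the same charge on a longer chain, -0.0330 ± 0.0136. D55Q, which has neither the charge nor the length, scored 0.0237 ± 0.0092 and was the only substitution above wild type at this residue. Neither D55Q nor D55E passed with the added error or at a threshold of 0.01. D55E minus D55Q passed the test at -0.0568 ± 0.0164. D55N minus D55Q was -0.114 ± 0.0130 and passed as well. D55Y at -0.0123 ± 0.0097 and D55F at -0.0110 ± 0.0098 did not pass in either direction. The other aspartate in the listing, D64, had a mean of -0.0246 ± 0.0025 with 9 of 19 substitutions lower.

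The comparisons of paired residues above were part of 11 exchanges of chemically close residues, such as aspartate with asparagine or isoleucine with valine, that were made at each of the 50 positions. They were chosen after the scores were known. Of the 50 exchanges at residues 51 to 55, 28 passed the test (56%), adjusted over all 476, against 35.1% over the 476. At arginine 52 only 1 of its 10 exchanges passed, R52G over R52A.

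Proline, which restricts the backbone, scored very differently at neighbouring residues. L51P and K53P ranked 9th and 16th from the highest among 49 prolines of the listing, whose median was -0.145. G54P ranked 40th, R52P 44th and D55P 49th, which is the lowest. Tolerant and intolerant positions thus alternated along the first 3 residues.

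The single scores were set against the same substitutions on ligands with 1 change that itself left growth near wild type. For this, the level of each CRIPT substitution was taken as its median over near-neutral PDZ3 substitutions outside residues 51 to 55, of which there were 280 with a single score within 0.02 of wild type. The 61 CRIPT substitutions with a level within 0.1 of wild type were used, and the shift is the pair score minus that level. All 34 substitutions above wild type had a positive median shift and all 46 below had a negative one. The absolute difference between a single score and its median shift had a median of 0.0113. Of the 34 above wild type, 20 had a single effect larger than their median shift. The single effect minus the shift had a median of 0.0114 over the 34. L51A went the other way, with a single score of 0.0351 and a median shift of 0.0516. The differences were large for some of the highest single scores. G54A scored 0.104 as a single and had a median shift of 0.0299 over 61 ligands, L51F had 0.184 and 0.125 over 43, and R52K had 0.110 and 0.0545 over 61. G54C had 0.146 and 0.0904, with a positive shift on 61 of 61 ligands.

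Combined with a ligand substitution, residues 51 to 55 had the same order of means as alone. The mean pair score was -0.248 at arginine 52, -0.294 at lysine 53, -0.344 at glycine 54, -0.361 at leucine 51 and -0.415 at aspartate 55. Of 13732 pairs, 10179 scored lower than wild type (74.1%) and 318 higher (2.32%). Over every variant of the listing, stops included, the shares were 74.9% and 1.99%, so both totals are near the background. Pairs above wild type numbered 117 with arginine 52, 97 with glycine 54, 72 with leucine 51, 18 with aspartate 55 and 14 with lysine 53. The ligand change Q5E, which alone scored 0.127 ± 0.0043, was the partner in 66 of the 318. How often Q5E was the partner over the whole listing was not computed, so this count is not a result about these residues. The highest pair was L51V with Q5E at 0.262 ± 0.0580, followed by L51F with Q5E at 0.245 ± 0.0524. G54R with Q5E scored 0.243 ± 0.0343 and R52G with Q5E 0.242 ± 0.0400. Their PDZ3 singles alone scored 0.102, 0.184, 0.0677 and 0.0921.

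Each pair was next compared with its CRIPT single, to ask what the PDZ3 substitution adds on an altered ligand. Against the listed CRIPT single, 2898 pairs were lower (21.1%) and 938 higher (6.83%), beside 18.3% and 6.29% over 135850 pairs of the listing. The listed value of some CRIPT singles differed from their level on near-neutral PDZ3: 16 of 151 by more than 0.1, of which 13 were at T6 or V8 and 15 lay below the level. Against the level, 2784 pairs were lower (20.3%) and 321 higher (2.34%), beside 17.4% and 1.83% in the listing. The higher calls thus depended on the reference, and the level is used in what follows. It was chosen after the data had been seen, and why the listed singles differ was not tested.

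By residue, 1101 of 2771 pairs with aspartate 55 were lower than the ligand's level (39.7%) and 2 were higher. Leucine 51 had 720 of 2600 lower and 66 higher, and glycine 54 had 627 of 2799 lower and 151 higher. Lysine 53 had 226 of 2800 lower and 8 higher, and arginine 52 had 110 of 2762 lower and 94 higher. Of the 110 lower pairs at arginine 52, 107 carried R52P. G54C had the most higher calls of any substitution, 73 of its 150 pairs. G54R followed with 28 of 151, then R52G with 21 of 151 and L51F with 21 of 103. The number of calls depends on the pair error, whose median was 0.0351 at glycine 54, 0.0480 at arginine 52 and 0.0535 at leucine 51. By median shift over its pairs L51F, at 0.135, lay above G54C, at 0.0880. The median shift was 0.0447 over pairs with arginine 52 and -0.0059 over those with glycine 54.

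These shares differed with the changed ligand residue. Shares by ligand residue were not computed over the whole listing, so the differences are not a result about the substituted domain residues. The share of lower pairs was between 22.8% and 26.6% for changes at K1, N2, Y3, K4, Q5 and S7. It was 1.90% at T6 and 5.07% at V8, the residues that PDZ ligands of this class insert into the groove. Against the listed single the lowest share was also at T6, 2.04%, and the highest at N2, 29.0%. Higher pairs had their highest share at V8 (20.7%) and their lowest at N2 (1.57%) against the listed single, whereas against the level their lowest share was at T6 and their highest at K4 (3.50%). Most ligands changed at T6 or V8 scored low themselves, with a median level of -0.727 at T6 and -0.738 at V8 against -0.307 to -0.00026 at the other 6 residues. Exceptions were T6S at -0.160, V8C at -0.1001, V8I at -0.194, V8L at -0.243 and V8M at -0.503. Errors were larger on low ligands: with D55R the median pair error was 0.208 on ligands with a level under -0.6 and 0.0878 on ligands above -0.1.

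The farthest pairs below the level were D55R with N2V at -0.966 ± 0.144, D55P with N2V at -0.962 ± 0.210 and R52P with N2M at -0.995 ± 0.148. N2V and N2M had levels of 0.0393 and -0.0075, so these ligands were near wild type. The PDZ3 singles alone scored -0.817, -0.888 and -0.816, already below the stop median, as the pairs did. The farthest above were K53V with V8K at -0.252 ± 0.122, R52I with T6Q at -0.404 ± 0.101 and L51Y with V8W at -0.402 ± 0.115. In each of these 3 the ligand level was between -0.742 and -0.717, and each pair scored below wild type. Against the listed single the farthest above were R52G with V8E, R52I with T6Q and R52M with T6P, by 0.851, 0.818 and 0.799. Their listed CRIPT singles, -1.31, -1.22 and -1.32, lay far below the stop median, and their levels were -0.769, -0.742 and -0.785. Farthest below by that reference were D55R with N2V, R52P with N2P and D55P with N2V, by differences of -1.007 to -1.003.

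A PDZ3 substitution shifted growth by nearly the same amount at most places in the ligand. Median shifts of the 95 substitutions, taken apart for each CRIPT position, had Pearson correlations of 0.988 to 0.997 and Spearman correlations of 0.973 to 0.982 among K1, N2, Y3, K4, Q5 and S7, over 15 pairs of positions. These points share the library and the same ligand levels, so the correlations are a description. Against T6 or V8 the Pearson correlations were 0.814 to 0.892. The median range of a substitution's shift over the 6 positions was 0.0271, and 8 substitutions had a range over 0.1, all with single scores of -0.575 or lower. D55R, for instance, had median shifts between -0.731 and -0.601 over those 6 positions. At T6, outside the 6 and with a median ligand level of -0.727, its median shift was -0.216. G54C had median shifts of 0.102 at K1 and 0.0429 at T6, and L51F had 0.0804 at K1 and 0.156 at T6.

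Shifts of charge-altering substitutions were also compared by the charge of the ligand, on ligands with a level above -0.3. Only 5 or 6 of these ligands gained charge, against 25 to 30 that lost it. The gains were all at N2, Y3 or S7 and most losses at K1 or K4. Ligand charge and ligand position therefore cannot be told apart here. For 40 substitutions that lower the charge of PDZ3, the median shift on ligands that gained charge minus that on ligands that lost charge had a median of 0.0037. For the 22 that raise it, the median was 0.0031. These medians are a description, and single substitutions ranged from -0.200 to 0.0616.

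Pairs were finally compared with what their 2 single effects predict, using a rising curve of pair score on the sum of the single effects fitted over the listing. Above the curve lay 85 of 13732 pairs (0.619%) and below it 23 (0.167%), beside 0.666% and 0.149% over the listing. These shares are near the background. Ligand position S7 held most of the calls, with 3.96% of its 1768 pairs above and 1.19% below. K1 had 0 in either direction, with 33 above and 32 below of 1774 pairs at an unadjusted p under 0.05. In turn, 58 of the 85 carried S7N, 11 carried S7D and 21 of the 23 below carried S7T. The listed scores of these ligand singles were -0.493, -0.603 and 0.0478, and their levels on near-neutral PDZ3 were -0.286, -0.454 and -0.0671. Calls by ligand position or ligand change were not computed over the whole listing. The concentration at S7 is therefore not a result about the substituted domain residues.

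The pairs farthest below the curve were D55G with S7T, at -0.525 ± 0.0398 against an expected -0.316, G54A with S7T, at -0.0933 ± 0.0278 against 0.108, and D55S with S7T, at -0.256 ± 0.0322 against -0.0886. Farthest above were K53V with V8K, at -0.252 ± 0.122 against -0.717, R52I with T6Q, at -0.404 ± 0.101 against -0.8002, and R52G with V8E, at -0.461 ± 0.0832 against -0.8002. With the ligand level in place of the listed single, 8 pairs lay above the curve (0.0583%) and 0 below, beside 0.118% and 0.011% of all pairs. The share above was thus under that of the listing. At an unadjusted p under 0.05 the same test gave 354 above and 183 below, of 13732 pairs. None of these 6 farthest pairs is among the 8.

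G54D supplied 6 of the 8, with Q5E, Y3S, Y3G, Y3R, Y3P and K4C. The other pairs were L51G with T6N and K53Y with T6I. Over its 145 pairs G54D had a median deviation of 0.0410 from this curve. Its single score, -0.298, lay below its median shift of -0.256 on the 61 ligands near wild type. G54D with Y3P scored -0.210 ± 0.0349 against an expected -0.391, and G54D with Y3R scored -0.148 ± 0.0320 against -0.317. G54D with Y3G scored -0.302 ± 0.0280 against -0.457. Over the 19 changes at Y3 the shift of G54D ran from -0.260 with Y3L to -0.129 with Y3P, with a median of -0.216. At K1, N2, K4, Q5 and S7 the median shift of G54D was between -0.278 and -0.253. The G54D pairs did not pass once the median deviation of each PDZ3 and CRIPT substitution was removed, which left 2 pairs, G54P with T6K and K53Y with T6I.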

How the data were processed

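The PDZ3-CRIPT table of amino acid variants was used, and the 3 tables of CRIPT-only libraries were not. Per the file headers, the deposited values are a fitness score and its error per sequence, computed by the authors and merged over 3 replicates. The formula, count filter and kind of error are not given in the sources used here. The submitters' processing notes name cutadapt and FastQC. The table holds 2 successive listings, for PDZ3 residues 51 to 100 and then 1 to 50. The listing for residues 51 to 100, which holds wild type, was used. Which listing is which labelled block was not assigned.

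Differences in score were divided by the root of the summed squared errors, and two-sided normal p-values were adjusted by the Benjamini-Hochberg method over the listing (142250 variants, or 135850 pairs), at a threshold of 0.05. Expected pair scores came from an isotonic curve on summed single effects (scikit-learn 1.9.0). The planned count models were replaced by these tests, since the table holds no counts. The tests were tested on simulated data. Such p-values measure only the authors' error. Means carry propagated errors.

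Named singles were, per residue, the lowest, the highest, all past the threshold above wild type, those to alanine, glycine or proline, and set conservative exchanges. Named pairs were the 3 farthest in each direction per test. Other named variants were chosen after their values were seen. The members and lists were chosen with earlier results of these data known. Alternatives were a threshold of 0.01, an added error, low-error variants only, 0 as reference, other averages, other CRIPT references and other expectations.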

Additional observations from a re-analysis of the deposited data

How the results depend on the processing

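No paired analysis was possible because the scores were deposited merged over replicates. For the same reason no replicate could be left out, and read depth does not enter any value. Counts of single substitutions were within 1.5 times under the alternatives, except that 22 in place of 34 scored higher with the added error. Restricting to errors at or under the listing's median of 0.0437 kept all 95 singles and 6809 pairs. No named single changed sign. Of 49 named singles, 13 lost their call with the added error, 7 at a threshold of 0.01 and 1 with low-error variants only, while K53A gained one with 0 as reference.

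Weighting by the inverse squared error moved the position means to -0.0590, 0.0410, -0.0383, -0.0414 and -0.101 in residue order. Medians were -0.0188 at leucine 51, 0.0501 at arginine 52 and -0.0906 at aspartate 55, and at glycine 54 the sign changed, to 0.0061. Without proline the means were -0.166 at leucine 51, 0.0613 at arginine 52, -0.0539 at glycine 54 and -0.150 at aspartate 55.

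Pairs higher than their CRIPT single numbered 582 at a threshold of 0.01, 224 among low-error variants and 321 with the ligand level, and lower pairs 1411 among low-error variants, where fewer were tested. Pairs below the curve numbered 11 at a threshold of 0.01, 5 with the added error, 119 with a plain sum, 79 with the product above the stop level, and 0 with the median of each substitution removed, with the ligand level, or without S7N, S7D and S7T. Pairs above it numbered 13 among low-error variants, 671 with a plain sum, 2 with medians removed, 8 with the ligand level and 7 without those 3 ligand changes. The ligand level and the removal of those 3 changes were chosen after seeing the data. The cause of these moves was not tested.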
